A study of Mus musculus with 30 samples.

Results

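Haematopoietic stem cells (HSCs) sorted 10 days after 5-fluorouracil (5-FU) were compared with HSCs sorted 6 days after it, over all genes. Day-10 HSCs gave 6 libraries and day-6 HSCs gave 4, together 10 of the 30 libraries of the series, and they were chosen by their labels alone. The 4 libraries of untreated HSCs from the same experiment served as the baseline. Marrow came from C57BL/6 mice that were 8 to 10 weeks old, and every library was made from 100 cells sorted as CD150+, CD48-, EPCR+ and lineage-negative, with no transgene or deleted gene named in the labels. The agent was 5-FU in both day groups and its dose is not given in the sources used here. The labels do not tie libraries to single mice, so p-values measure the spread between these libraries, which may be technical.

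5-FU is a pyrimidine analogue that blocks thymidylate synthase and kills cycling cells, and most long-term HSCs survive it because they are seldom in cycle. The loss of the cycling progenitors draws the surviving HSCs into division, after which they go back to quiescence. Quiescent HSCs are known for high expression of antiproliferative and AP-1 genes and for low rates of protein synthesis and mitochondrial respiration.

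Exon reads numbered 6473824 to 8806027 in the day-10 libraries, 6473093 to 8289885 in the day-6 libraries and 5208722 to 6862215 in the untreated libraries. Mitochondrial mRNA took 0.253 ± 0.0142% of the reads on genes at day 10 (SD, n = 6) and 0.329 ± 0.0219% at day 6 (n = 4), with no overlap (two-sided exact permutation p = 0.00952, the smallest these groups allow, adjusted p = 0.0381 over 4 library measures). Introns took 60.2 ± 1.78% at day 10 and 57.5 ± 0.867% at day 6 (exact permutation p = 0.0381, adjusted p = 0.0762). The gate genes were present as the sort implies. Slamf1, which encodes CD150, had 45.3, 50.5 and 55.6 CPM (exon reads on the counts-per-million scale; lowest, median and highest of 6 libraries) at day 10, against 29.7, 35.9, 43 and 33.7 CPM (replicates 1 to 4) at day 6, and rose by 0.49 ± 0.12 (SE, adjusted p = 0.00522) on the log2 scale. Procr, which encodes EPCR, ranged over 47 to 91.9 CPM at day 10 and 64.7 to 73.1 CPM at day 6, and Cd48 over 2.06 to 6.1 CPM at day 10 and 1.82 to 6.05 CPM at day 6. Both overlapped between the days, with log2 changes of 0.10 (adjusted p = 0.654) and 0.10 (adjusted p = 0.9).

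Some libraries stood apart. Transcripts of interferon-stimulated genes summed to 36260 CPM in day-10 replicate 6, and the remaining 5 libraries of that day summed to between 7528 and 13510 CPM. Macrophage and monocyte markers summed to 3625 CPM in day-6 replicate 1 against 532 to 946 CPM in the other 3 day-6 libraries. Erythroid markers reached 3192 CPM in day-10 replicate 4, and stromal markers 1021 CPM in day-10 replicate 3. Day-6 replicate 1 and day-10 replicates 4 and 6 were therefore also left out together, and each library in turn.

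Of 12886 tested genes, 3949 (30.6%) differed between the days at an adjusted p under 0.05 (edgeR's quasi-likelihood test with Benjamini-Hochberg adjustment). Day-10 HSCs had more mRNA of 1894 genes (14.7%) and less of 2055 (15.9%), and the median log2 change over all tested genes was -0.016. Changes of at least 2-fold were more often increases, with 478 genes (3.71%) higher and 171 (1.33%) lower. For 2900 genes (22.5%) no day-10 library lay within the day-6 range or the reverse, and 2646 of these (20.5% of all) also passed the test. Mean levels at day 10 lay between those of untreated and day-6 HSCs for 60.4% of the genes that passed and 56.2% of all tested genes. The day-10 and day-6 libraries enter both differences that such an order describes, so these shares are a description only. Day-10 HSCs differed from untreated HSCs for 4893 genes (38%), and day-6 HSCs for 6622 (51.4%).

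**Figure D1:**
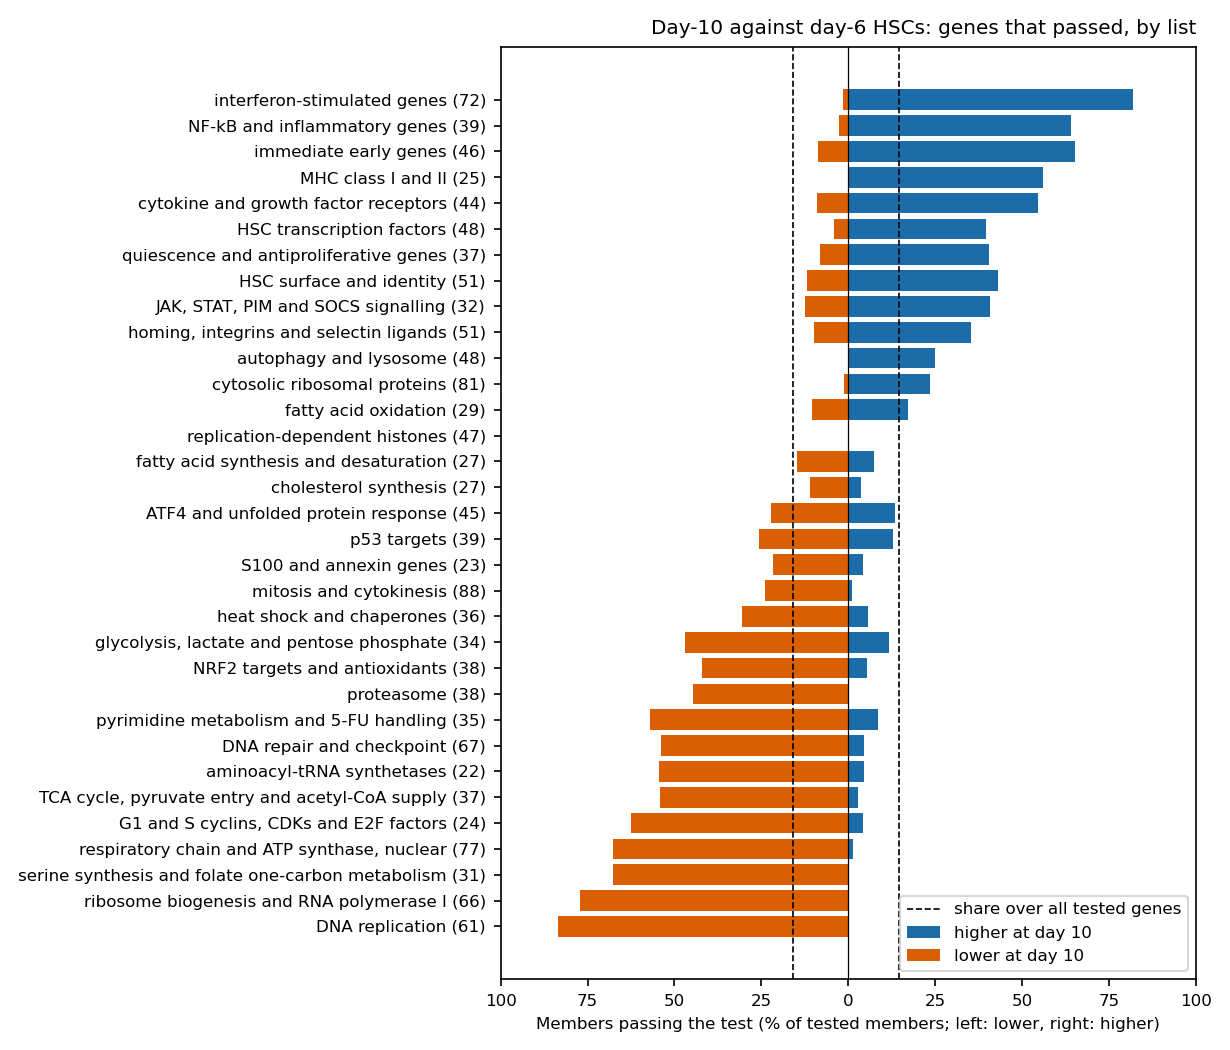
Share of tested members of each gene list that passed the test, with members higher at day 10 to the right and lower to the left (% of tested members, whose number is in brackets). Dashed lines mark the shares over all 12886 tested genes, 14.7% higher and 15.9% lower; DNA replication genes lie farthest to the left (51 of 61 lower) and interferon-stimulated genes farthest to the right (59 of 72 higher).

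Genes that copy DNA made the list most often lower at day 10. Of 61 DNA replication genes, 51 fell and 10 did not pass, with a median log2 change of -0.73. The background over all genes was 15.9% lower and a median of -0.016. Pole, which encodes the catalytic part of DNA polymerase epsilon (chromosome 5, 110286319 to 110337468, mm10), had 154, 180.1 and 207 CPM at day 10, against 314, 328, 276 and 348 CPM at day 6, a log2 change of -0.83 ± 0.095 (SE, adjusted p = 3.9e-05). Every day-10 library lay below every day-6 library and above the untreated range of 96.5 to 124 CPM. Pold2, a subunit of DNA polymerase delta, had 51.8, 60.7 and 69.7 CPM at day 10, against 102, 117, 109 and 112 CPM at day 6 (log2 change -0.86 ± 0.095 SE, adjusted p = 3.24e-05). Against untreated HSCs, at 46.2 to 56.2 CPM, the log2 change at day 10 was 0.24 and missed the threshold (adjusted p = 0.0653). Mcm3, a subunit of the replicative helicase, fell to 239, 314 and 336 CPM at day 10, against 444, 537, 498 and 547 CPM at day 6 (log2 change -0.77 ± 0.094 SE, adjusted p = 6.93e-05). Of the 61 genes, 46 were higher at day 10 than in untreated HSCs (19.9% of all tested genes did), and the mean level at day 10 lay between the other groups for 58.

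E2F factors switch on replication genes at entry into S phase, and the promoters of helicase genes that fell are shown for that reason. The motif searched was TTTCCCGC or TTTGGCGC on either strand, in the 250 bases before the RefSeq gene start (GRCm38.p6, the same assembly as mm10). It was present for 8 of the 50 replication genes with a RefSeq promoter (16%), against 292 of 10324 tested genes (2.83%). Mcm5 and Mcm6 were chosen after their values were seen, as the replication genes with the largest falls that hold the motif and share their start with the deposited annotation. Capitals mark the motif, and a match is not evidence of binding.
Mcm5 promoter, chr8:75109259-75109508, plus strand: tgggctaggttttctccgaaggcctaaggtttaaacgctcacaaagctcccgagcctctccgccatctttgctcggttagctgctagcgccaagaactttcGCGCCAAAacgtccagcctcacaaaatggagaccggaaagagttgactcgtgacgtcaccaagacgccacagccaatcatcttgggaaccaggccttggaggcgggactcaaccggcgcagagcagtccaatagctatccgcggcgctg
Mcm6 promoter, chr1:128359706-128359955, minus strand: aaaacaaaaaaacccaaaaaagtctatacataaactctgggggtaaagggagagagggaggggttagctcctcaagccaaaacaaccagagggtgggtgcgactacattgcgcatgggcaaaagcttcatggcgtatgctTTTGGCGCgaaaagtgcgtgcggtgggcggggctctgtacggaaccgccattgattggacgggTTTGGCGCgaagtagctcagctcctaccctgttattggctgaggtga
Mcm5 had 249, 360.5 and 421 CPM at day 10, against 525, 654, 531 and 692 CPM at day 6 (log2 change -0.81 ± 0.13 SE, adjusted p = 0.000501). Mcm6 had 269.9, 353 and 366 CPM at day 10, against 493, 569, 489.9 and 602 CPM at day 6 (log2 change -0.69 ± 0.092 SE, adjusted p = 0.000125). For both helicase genes the highest day-10 library lay below the lowest day-6 library.

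Of 24 genes of G1 and S phase control, 15 fell and Cdk6 rose, with a median log2 change of -0.57. Ccnd1, the D-type cyclin that starts G1 progression (chromosome 7, 144929931 to 144939937), had 61.6, 98.6 and 147 CPM at day 10, against 235, 238, 239.8 and 218 CPM at day 6 (log2 change -1.18 ± 0.20 SE, adjusted p = 0.000638). The 4 day-6 libraries lay close together and the day-10 libraries reached down into the untreated range of 54.7 to 91.2 CPM. Skp2, which targets the inhibitor p27 for degradation, and Tfdp1, the partner of E2F factors, fell (log2 changes of -0.57 and -0.63). Cdk6, the kinase partner of D-type cyclins, went the other way with 696, 928 and 2288 CPM at day 10, against 452, 414, 484 and 404 CPM at day 6 (log2 change 1.38 ± 0.28 SE, adjusted p = 0.00197; chosen after its values were seen). Its highest value came from day-10 replicate 1, and no day-10 library fell within the day-6 range.

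Mitosis genes separated less clearly. Of 88 mitosis and cytokinesis genes, 21 fell (23.9%, against 15.9% of all genes) and 66 did not pass, with a median log2 change of -0.41. The 1 gene that rose was Pttg1, the securin, named after its values were seen. Of the 88, 85 were higher at day 10 than in untreated HSCs, against 19.9% of all tested genes. Mki67, the standard mark of cycling cells, had 399, 419.9 and 508 CPM at day 10, against 594, 644, 626 and 586 CPM at day 6, and 90.3 to 269.9 CPM in untreated HSCs. The days did not overlap, yet the log2 change of -0.47 missed the threshold (adjusted p = 0.0765). The count of mitosis genes that fell was 51 with the untreated libraries left out of the fit, 40 without untreated replicate 2 and 32 without day-10 replicate 6, and Mki67 passed in those 3 fits (adjusted p = 0.0013, 0.0145 and 0.0467) and without untreated replicate 4 (adjusted p = 0.0201). Tuba1b, an alpha-tubulin of the spindle, fell to 931, 1182 and 1504 CPM at day 10, against 2051, 2141, 2074 and 2072 CPM at day 6 (log2 change -0.79 ± 0.11 SE, adjusted p = 0.000178). Tubb5, a beta-tubulin, and Ncapg2, a condensin subunit, fell (log2 changes of -0.49 and -0.88). Intron reads gave no fall for Tuba1b (0.11, adjusted p = 0.883). None of the 47 tested replication-dependent histone genes passed in edgeR's test, with 2 higher and 4 lower at an unadjusted p under 0.05 and 1 lower in DESeq2. In other edgeR fits 6 were lower and 1 higher with the untreated libraries left out, 4 were lower without untreated replicate 4, 2 without untreated replicate 2, 3 without day-10 replicate 6 and 1 without the 3 libraries named above.

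DNA repair followed replication in part. Of 67 repair and checkpoint genes, 36 fell and 3 rose (Trp53bp1, Ercc5 and Neil1, named after their values were seen), with a median log2 change of -0.33. Only 1 rose without day-6 replicate 2 or 4, and 0 rose on intron reads. Chek1, the checkpoint kinase of stalled replication, was among the 12 largest falls under the naming rule. It had 11.2, 17.1 and 23.3 CPM at day 10, against 31.4, 41.9, 38.9 and 42.3 CPM at day 6 (log2 change -1.23 ± 0.21 SE, adjusted p = 0.000786). Fancd2, of the crosslink repair pathway, had 35.7, 38.7 and 44 CPM at day 10, against 68.7, 72.3, 71.9 and 66.1 CPM at day 6 (log2 change -0.83 ± 0.088 SE, adjusted p = 2.64e-05), and all of its day-10 values lay above the untreated range of 16.4 to 21.9 CPM. Brca2, of homologous recombination, and Parp1, a sensor of strand breaks, fell (log2 changes of -0.69 and -0.56). Of 39 p53 targets, 10 fell and 5 rose with a median of -0.05 (25.6% lower and 12.8% higher, against 15.9% and 14.7% of all genes), and 6 fell and 3 rose without day-6 replicate 4. Zmat3, a p53-induced RNA-binding protein, had 30.3, 34.5 and 42.4 CPM at day 10, against 47.5, 52.4, 44.2 and 55.8 CPM at day 6 (log2 change -0.48 ± 0.12 SE, adjusted p = 0.00641), still above its untreated range of 14 to 19.1 CPM. Cdkn1a, which encodes the cell cycle inhibitor p21, overlapped between the days with 7.24, 11.3 and 28.6 CPM at day 10 and 25.7, 17.6, 8.62 and 14.7 CPM at day 6 (log2 change -0.22, adjusted p = 0.699). On intron reads Cdkn1a was higher at day 10 by 1.48 (adjusted p = 0.0406).

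Genes of nucleotide supply fell as well. Of 35 genes of pyrimidine metabolism and 5-FU handling, 20 fell (57.1%, against 15.9% of all genes) and 3 rose, with a median log2 change of -0.41. On intron reads 13 of 38 fell, against 1153 of 14996 genes. Tyms, which encodes thymidylate synthase, the enzyme 5-FU blocks (chromosome 5, 30038546 to 30073625), had 48, 67.1 and 78.5 CPM at day 10, against 97.9, 126, 102 and 144 CPM at day 6 (log2 change -0.81 ± 0.18 SE, adjusted p = 0.00341). All day-10 libraries lay below all day-6 libraries, and some lay within the untreated range of 27.3 to 56.7 CPM. Dut, the dUTPase that keeps uracil out of DNA, fell to 35.7, 45.4 and 54 CPM at day 10, against 76.8, 85.6, 82.3 and 96.4 CPM at day 6 (log2 change -0.92 ± 0.12 SE, adjusted p = 0.000141). Cad, which starts pyrimidine synthesis, and Dctpp1, a dCTP pyrophosphatase, fell (log2 changes of -0.88 and -0.96). The 3 that rose were named after their values were seen. Upp1, a uridine phosphorylase that can activate 5-FU, had 9.53, 11.4 and 13 CPM at day 10, against 6.79, 7.24, 7.89 and 3.86 CPM at day 6 (log2 change 0.81 ± 0.19 SE, adjusted p = 0.00581). Cmpk2 and Samhd1, a nucleotide kinase and a dNTP hydrolase that are also interferon-induced, rose by 1.75 and 1.04, and day-10 replicate 6 was highest for both. The days overlapped for Cmpk2, whose rise was 1.13 without that replicate and missed the threshold without day-6 replicate 2 (adjusted p = 0.053).

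Of 31 genes of serine synthesis and folate one-carbon metabolism, 21 fell and 10 did not pass, with a median of -0.50. Mthfd1l, the mitochondrial formyl-tetrahydrofolate synthetase, had 66.9, 68.6 and 79.8 CPM at day 10, against 138, 135, 139 and 145 CPM at day 6 (log2 change -0.97 ± 0.086 SE, adjusted p = 7.26e-06). Its untreated range was 45.9 to 63.9 CPM, so that the day-10 libraries lay just above it and every day-6 library far above. Phgdh, the first enzyme of serine synthesis, and Pfas, of purine synthesis, fell (log2 changes of -0.74 and -0.78).

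Day-10 HSCs also had less mRNA for mitochondrial respiration. Of 77 nuclear genes of the respiratory chain and ATP synthase, 52 fell and 1 rose (Cox7a2l, named after its values were seen), with a median log2 change of -0.39. Of the 77, 64 were higher at day 10 than in untreated HSCs (19.9% over all genes). Ndufa4, a small subunit of the respiratory chain, had 127, 146 and 161 CPM at day 10, against 220.3, 229, 244 and 235 CPM at day 6 (log2 change -0.67 ± 0.07 SE, adjusted p = 2.64e-05), with every day-10 library between the day-6 and the untreated range (80.3 to 87.8 CPM). Atp5g3, of the membrane rotor of ATP synthase, showed the same order with 155, 204 and 226 CPM at day 10, against 286, 339, 331 and 306 CPM at day 6 (log2 change -0.69 ± 0.10 SE, adjusted p = 0.00022) and 101 to 113 CPM in untreated HSCs. Sdhd, an anchor of succinate dehydrogenase, fell (log2 change -0.58). On intron reads 6 of 76 respiratory genes fell, near the share over all genes (1153 of 14996). Ndufa4, Atp5g3 and Sdhd did not pass there (adjusted p = 0.294, 0.115 and 0.149).

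Carbon metabolism moved in parts. Of 37 genes of the TCA cycle, pyruvate entry and acetyl-CoA supply, 20 fell and 1 rose, with a median of -0.31. Pdp1, the phosphatase that activates pyruvate dehydrogenase, was among the 12 largest falls under the naming rule, with 22.6, 30.6 and 36.3 CPM at day 10, against 73.2, 80.4, 54.9 and 63.6 CPM at day 6 (log2 change -1.20 ± 0.15 SE, adjusted p = 6.93e-05). The gene that rose, Pdk2, encodes a kinase that inhibits the same enzyme and was named after its values were seen. It had 28.6, 41.4 and 56.7 CPM at day 10, against 24.5, 18, 20.5 and 22.7 CPM at day 6 (log2 change 0.92 ± 0.17 SE, adjusted p = 0.00125). For both genes the days did not overlap, in opposite directions, and on intron reads neither passed (adjusted p = 0.179 and 0.207). Idh3a, a subunit of isocitrate dehydrogenase, and Acat1, the mitochondrial acetoacetyl-CoA thiolase, fell (log2 changes of -0.79 and -0.66). Acly, which makes cytosolic acetyl-CoA from citrate, had 279, 294 and 326 CPM at day 10, against 324, 357, 358 and 348 CPM at day 6 (log2 change -0.22 ± 0.064 SE, adjusted p = 0.0169). Its groups overlapped, and it did not pass without day-6 replicate 2 (adjusted p = 0.0603) or 3 (adjusted p = 0.0584).

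Of 34 glycolysis and pentose phosphate genes, 16 fell (47.1%, against 15.9% of all genes) and 4 rose (11.8%, against 14.7%), with a median of -0.28. On intron reads 5 of 33 fell, against 1153 of 14996 genes. The number that rose was 1 without day-6 replicate 3 and 2 without day-6 replicate 2. The glycolytic enzymes Tpi1, Pgk1 and Eno1 fell (log2 changes of -0.70, -0.69 and -0.51), and on intron reads Tpi1 and Pgk1 did not pass (adjusted p = 0.337 and 0.438). Those that rose were Hk1, Aldoc, Eno2 and Pfkfb3, named after their values were seen. In fatty acid synthesis 4 of 27 genes fell (14.8%, near the 15.9% of all genes) and 2 rose (7.41%, below the 14.7% of all genes). Fasn, fatty acid synthase, had 423, 484 and 562 CPM at day 10, against 699, 809, 801 and 787 CPM at day 6 (log2 change -0.67 ± 0.094 SE, adjusted p = 0.000176), and day 10 overlapped with the untreated range of 423 to 593 CPM. In cholesterol synthesis 3 of 27 genes fell (11.1%) and 1 rose (3.70%), both below the shares of all genes. In fatty acid oxidation 5 of 29 rose (17.2%, near the background) and 3 fell (10.3%). Acad10, an acyl-CoA dehydrogenase, rose by 0.91. The count of cholesterol genes that fell ranged from 0 on intron reads to 5 with the 2 groups alone, with 1 without day-10 replicate 2 or day-6 replicate 3.

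Genes of ribosome biogenesis fell, and ribosomal protein genes moved little. Of 66 ribosome biogenesis and RNA polymerase I genes, 51 fell and 15 did not pass, with a median of -0.43. Ncl, the nucleolar protein nucleolin (chromosome 1, 86344719 to 86359455), had 333, 379 and 453 CPM at day 10, against 539, 558, 596 and 550.1 CPM at day 6 (log2 change -0.55 ± 0.086 SE, adjusted p = 0.000383), overlapping with the untreated range of 334 to 408 CPM. Polr1b, a core subunit of RNA polymerase I, fell to 92.5, 102 and 123 CPM at day 10, against 147, 148, 160.1 and 155 CPM at day 6 (log2 change -0.56 ± 0.088 SE, adjusted p = 0.000409), with an untreated range of 106 to 139 CPM. For both nucleolar genes all day-10 libraries lay below all day-6 libraries. Among 81 genes for proteins of the cytosolic ribosome, 19 rose and 1 fell (23.5% higher, against the 14.7% of all genes), with a median of 0.10. Rps27 and Rps9, proteins of the small subunit, rose by 0.39 and 0.39 on the log2 scale without overlap between the days. The gene that fell, Rps27l, a relative of Rps27 known as a p53 target in human cells and named after its values were seen, had 24.1, 34.7 and 42.9 CPM at day 10, against 44.1, 55.1, 50.1 and 62.1 CPM at day 6 (log2 change -0.61 ± 0.15 SE, adjusted p = 0.00667). The count of 19 was not stable. It was 10, 11, 12 and 11 without day-10 replicate 1, 4, 5 or 6, 6 without the 3 libraries named above and 4 of 67 on unique reads. Without a filter on low counts 10 rose, and on intron reads 21 of 81 fell (1153 of 14996 over all genes).

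Other genes of protein production and upkeep passed in smaller numbers. Of 22 aminoacyl-tRNA synthetase genes, 12 fell and 1 rose (Vars, named after its values were seen), with a median of -0.37, and 7 fell without day-6 replicate 4. Iars, which charges isoleucine tRNA, fell (log2 change -0.49). In the ATF4 response and the unfolded protein response, 10 of 45 genes fell (22.2%, against 15.9% of all genes) and 6 rose (13.3%, near the 14.7% of all genes) with a median of -0.11, and with 6 lower without day-6 replicate 2 and 3 higher without day-6 replicate 3 or 4. Psat1, a serine synthesis enzyme under ATF4, had 88.6, 116 and 143 CPM at day 10, against 183, 213, 209 and 213 CPM at day 6 (log2 change -0.82 ± 0.11 SE, adjusted p = 0.000144). Of 38 antioxidant genes, 16 fell (42.1%, against 15.9% of all genes) and 2 rose (5.26%, against 14.7%), with a median of -0.27. Prdx1, a peroxiredoxin, had 249, 289 and 358 CPM at day 10, against 592, 516, 454 and 468 CPM at day 6 (log2 change -0.77 ± 0.092 SE, adjusted p = 6.34e-05), and the groups did not overlap.

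Of 36 heat shock and chaperone genes, 11 fell (30.6%, against 15.9% of all genes) and 2 rose (5.56%, against 14.7%), with a median of -0.22. The number that fell was 20 without day-10 replicate 1, 7 without day-6 replicate 2 and 2 of 34 on intron reads. Hspa9, the mitochondrial Hsp70, fell (log2 change -0.60). Of 38 proteasome genes, 21 did not pass and 17 fell (44.7%, against 15.9% of all genes), with a median of -0.30. That number was 28 without day-10 replicate 6, 9 or 10 without day-10 replicate 2 or 3, and 9, 8 and 8 without day-6 replicate 2, 3 or 4. Autophagy and lysosome genes went the other way, with 12 of 48 higher (25%, against 14.7% of all genes) and 36 not passing (median 0.17). Without day-6 replicate 1, 20 were higher. Ulk1, the kinase that starts autophagy, had 184, 237 and 304 CPM at day 10, against 143, 119.5, 133 and 139.9 CPM at day 6 (log2 change 0.85 ± 0.13 SE, adjusted p = 0.000245). The untreated range of 246 to 334 CPM overlapped with day 10. Map1lc3b, which encodes the autophagosome protein LC3B, rose by 0.33.

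**Figure D2:**
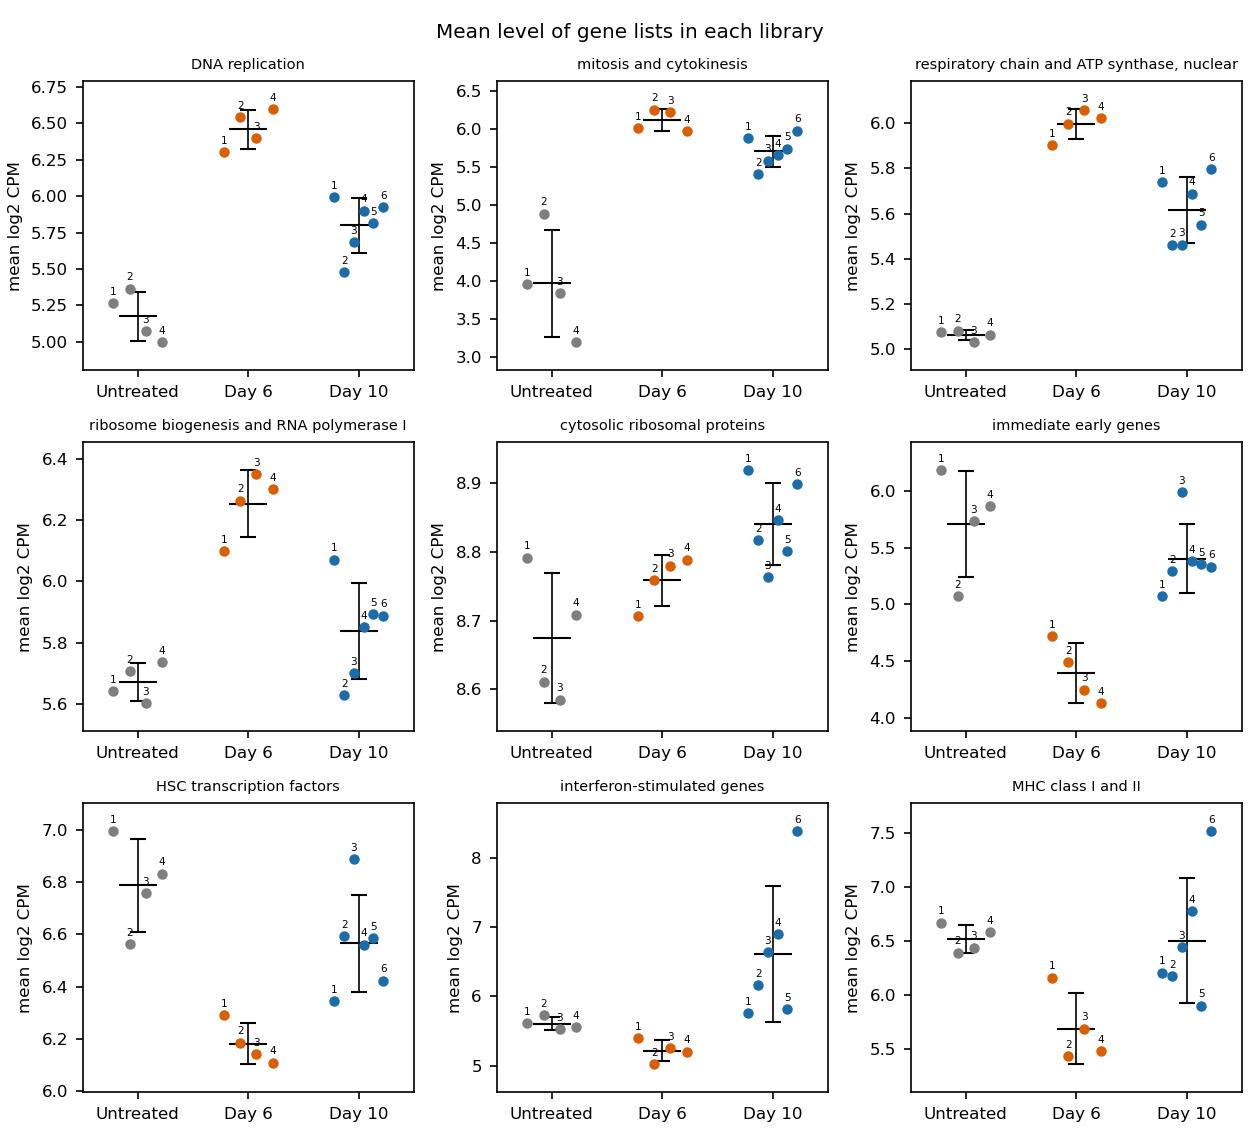
Mean log2 CPM over the tested members of 9 gene lists in each library (numbers are replicates), with the mean ± SD of the 4 untreated, 4 day-6 and 6 day-10 libraries. In DNA replication and respiration every day-10 library lies between the other groups, and in mitosis all but day-10 replicate 6 do; immediate early genes are higher at day 10 than at day 6 in every library, and day-10 replicate 6 stands highest for interferon-stimulated and MHC genes.

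Immediate early genes were more often higher at day 10 than all genes were. Of 46 immediate early genes, 30 rose (65.2%, against 14.7% of all genes) and 4 fell, with a median log2 change of 1.11. Those that fell were Fosl1, Dusp4, Gem and Arc, all but Gem named after their values were seen. Over the tested members, mean log2 CPM was 5.40 ± 0.306 at day 10 (SD, n = 6) and 4.40 ± 0.263 at day 6 (n = 4), with an untreated mean of 5.71 ± 0.467 (n = 4). These genes react within minutes to stress and handling. The intron share above was higher at day 10 on average, but it overlapped between the days (57.6 to 62.1% against 56.2 to 58.0%). It did not pass the exact permutation test (adjusted p = 0.0762). Its part in the result was not tested. Of 37 genes of quiescence and growth arrest, 15 rose (40.5%, against 14.7% of all genes), 3 fell (Btg3, Ndn and Socs2, named after their values were seen) and 19 did not pass, with a median of 0.33. Lists share members, such as Socs3 in this list and among the immediate early genes, so their counts are not independent.

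Btg2, an antiproliferative gene and p53 target (chromosome 1, 134074865 to 134079155), had 50.5, 79 and 169.5 CPM at day 10, against 16.7, 10.8, 6.8 and 5.1 CPM at day 6 (log2 change 3.28 ± 0.42 SE, adjusted p = 0.000105). The lowest day-10 library was well above the highest day-6 library, and the untreated range of 86 to 250.4 CPM overlapped with day 10. Its relative Btg1 had 133, 165 and 177 CPM at day 10, against 83.1, 58.2, 62.3 and 52.5 CPM at day 6 (log2 change 1.33 ± 0.13 SE, adjusted p = 1.44e-05). Junb, an AP-1 subunit that restrains HSC division (chromosome 8, 84976909 to 84978748), had 69.6, 86.1 and 115 CPM at day 10, against 22.4, 21, 12.5 and 9.73 CPM at day 6 (log2 change 2.44 ± 0.29 SE, adjusted p = 6.53e-05). Zfp36, which destabilises the mRNA of inflammatory and early genes, had 149.9, 173 and 256 CPM at day 10, against 56, 40.0, 34.8 and 34.4 CPM at day 6 (log2 change 2.16 ± 0.25 SE, adjusted p = 5.55e-05). For Btg1, Junb and Zfp36 no day-10 library reached down to any day-6 library, and each overlapped with its untreated range. Against untreated HSCs their log2 changes at day 10 were -0.33 (adjusted p = 0.0388), -0.42 (adjusted p = 0.207) and -0.41 (adjusted p = 0.163). Egr1, a zinc finger factor of quiescent HSCs, rose only part of the way, with 158, 288 and 423 CPM at day 10, against 93.5, 154, 81.2 and 84.2 CPM at day 6 (log2 change 1.44 ± 0.32 SE, adjusted p = 0.00371) and 604 to 1556 CPM in untreated HSCs.

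Of 39 NF-kB and inflammatory genes, 25 rose and 1 fell (Sod2, named after its values were seen), with a median of 0.55. Inhibitors and co-factors of NF-kB were those with the smallest p. Nfkbie, an inhibitor of the IkB family, had 24.8, 35.4 and 51.6 CPM at day 10, against 10.6, 13.6, 13.6 and 15.1 CPM at day 6 (log2 change 1.48 ± 0.19 SE, adjusted p = 0.000105). Nfkbiz, a nuclear member of that family, rose by 1.26. Bcl3, another nuclear member, had 38.7, 62.6 and 100.0 CPM at day 10, against 19, 22.3, 21 and 21.8 CPM at day 6 (log2 change 1.64 ± 0.24 SE, adjusted p = 0.000251), and unlike the other 2 it lay above its untreated range of 14.9 to 23.2 CPM in all 6 day-10 libraries.

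**Figure D3:**
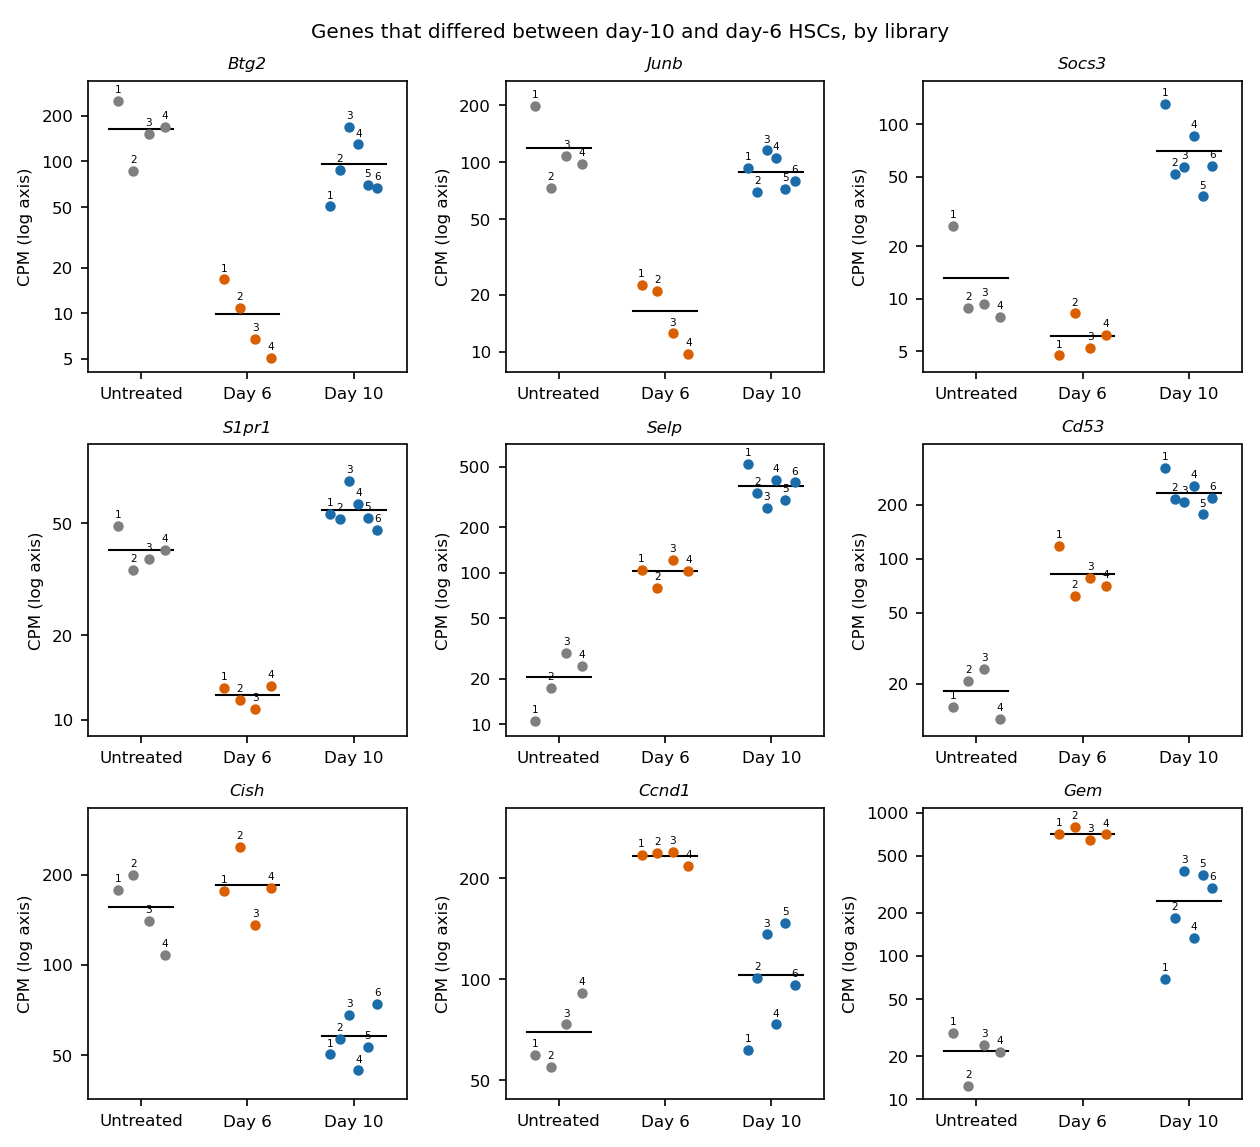
CPM of 9 genes in each library on log axes (numbers are replicates, lines are group means of 4 untreated, 4 day-6 and 6 day-10 libraries). Btg2, Junb, Socs3 and S1pr1 are higher in every day-10 than in every day-6 library, Selp and Cd53 step up from untreated to day 6 and again to day 10, and Cish, Ccnd1 and Gem are lower at day 10 than at day 6 in every library.

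Of 32 genes of JAK, STAT, PIM and SOCS signalling, 13 rose (40.6%, against 14.7% of all genes) and 4 fell (12.5%, below the 15.9% of all genes). The genes that fell were Pim2, Socs2, Cish and Bcl2l1, of which Pim2 and Bcl2l1 were named after their values were seen, and the list's median was 0.15. The number that fell was 2 without day-6 replicate 2, 3 or 4 and 2 of 31 on intron reads. Jak3, a kinase of the common gamma chain receptors (chromosome 8, 71676383 to 71690577), had 425, 454 and 545 CPM at day 10, against 213, 232, 219 and 237 CPM at day 6 (log2 change 1.05 ± 0.074 SE, adjusted p = 8.37e-07). Stat3, the factor downstream of IL-6 family and G-CSF receptors, had 455, 518 and 547 CPM at day 10, against 261, 264, 278 and 242 CPM at day 6 (log2 change 0.97 ± 0.077 SE, adjusted p = 2.62e-06). Both genes lay at day 10 above all untreated libraries (322 to 369 and 322 to 415 CPM). Socs3, the feedback inhibitor of those receptors (chromosome 11, 117966079 to 117970342), had 38.5, 57.2 and 131 CPM at day 10, against 4.72, 8.23, 5.22 and 6.18 CPM at day 6 (log2 change 3.52 ± 0.41 SE, adjusted p = 5.55e-05). All 6 day-10 libraries were above every day-6 and every untreated library (7.9 to 26.1 CPM). On intron reads Socs3 was higher by 2.15 and missed the threshold (adjusted p = 0.057).

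Cish, an inhibitor of cytokine receptor signalling (chromosome 9, 107296659 to 107302784), had 44.5, 55.1 and 74.1 CPM at day 10, against 177, 247, 136 and 181 CPM at day 6 (log2 change -1.68 ± 0.18 SE, adjusted p = 3.11e-05). Its day-10 libraries lay below all day-6 and all untreated libraries (108 to 200.2 CPM), a log2 change of -1.43 against untreated HSCs (adjusted p = 4.07e-05). Socs2, named after its values were seen, had 79.1, 112 and 157 CPM at day 10, against 196, 252, 202 and 236 CPM at day 6 (log2 change -0.92 ± 0.19 SE, adjusted p = 0.00215), within reach of its untreated range of 74 to 114 CPM. Stat5b itself rose by 0.56.

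Of 44 cytokine and growth factor receptor genes, 24 rose and 4 fell (among them Il11ra1, Il21r and Igf2r, named after their values were seen), with a median of 0.40. The share that rose was 54.5%, against 14.7% of all genes. On intron reads 15 of 43 rose, against 1389 of 14996 genes. Csf3r, the G-CSF receptor (chromosome 4, 126023441 to 126044975), had 262, 348 and 414 CPM at day 10, against 112, 132, 97.8 and 122 CPM at day 6 (log2 change 1.55 ± 0.16 SE, adjusted p = 2.4e-05). Il6ra, the IL-6 receptor alpha chain, had 34.3, 42.2 and 47 CPM at day 10, against 23.8, 10.4, 16.1 and 16.2 CPM at day 6 (log2 change 1.34 ± 0.19 SE, adjusted p = 0.000162). For both receptors the groups did not overlap and the day-10 level lay within or across the untreated range.

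Of 51 surface and identity genes of HSCs, 22 rose (43.1%, against 14.7% of all genes) and 6 fell (11.8%, against 15.9%), with a median of 0.38, and of 48 HSC transcription factor genes 19 rose (39.6%) and 2 fell (Mycn and Id1, named after their values were seen), with a median of 0.33. Against untreated HSCs 18 of the 51 and 20 of the 48 were lower at day 10 (18.1% of all tested genes were). Adgrg1, the adhesion receptor GPR56 of HSCs (chromosome 8, 94974756 to 95014208), had 2668, 3212 and 3488 CPM at day 10, against 1918, 2172, 2187 and 2099 CPM at day 6 (log2 change 0.58 ± 0.073 SE, adjusted p = 7.87e-05), between the day-6 and the untreated range (4344 to 4695 CPM) in all 6 libraries. Clca3a1, a surface gene of the list, showed the third largest rise under the naming rule, with 35.5, 121 and 176 CPM at day 10, against 5.17, 3.69, 6.43 and 4.63 CPM at day 6 (log2 change 4.52 ± 0.49 SE, adjusted p = 3.01e-05). Ltb, the lymphotoxin beta gene, rose by 1.51, and on intron reads by 0.67 (adjusted p = 0.242).

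Among the factors, Ikzf2, the Ikaros family member Helios, had 276, 306 and 353 CPM at day 10, against 152, 150.2, 157 and 140.2 CPM at day 6 (log2 change 1.06 ± 0.074 SE, adjusted p = 8.08e-07), above its untreated range of 186 to 204 CPM. Myb, which HSCs and progenitors need to divide and differentiate, had 632, 739.9 and 807 CPM at day 10, against 342, 420.4, 452 and 421 CPM at day 6 (log2 change 0.84 ± 0.092 SE, adjusted p = 3.11e-05). Sox4 had 73.5, 103 and 126 CPM at day 10, against 40.6, 30.0, 39.6 and 49.9 CPM at day 6 (log2 change 1.34 ± 0.17 SE, adjusted p = 0.000107). Myb and Sox4 did not overlap between the days, and their log2 changes against untreated HSCs were 0.043 (adjusted p = 0.737) and 0.036 (adjusted p = 0.885). Id1, an inhibitor of helix-loop-helix factors that is induced by BMP signals, fell to 5.08, 6.68 and 8.12 CPM at day 10, against 12, 17.2, 18.8 and 13.7 CPM at day 6 (log2 change -1.22 ± 0.22 SE, adjusted p = 0.00115).

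Other HSC markers moved further from their untreated level. Mmrn1, multimerin 1, had 61.4, 84.6 and 114 CPM at day 10, against 122, 128, 150.1 and 145 CPM at day 6 (log2 change -0.67 ± 0.14 SE, adjusted p = 0.00305) and 302 to 368 CPM in untreated HSCs. Cyp26b1, which breaks down retinoic acid in dormant HSCs and was named after its values were seen, had 0.848, 1.22 and 2.08 CPM at day 10, against 10.3, 4.12, 10.1 and 4.01 CPM at day 6 (log2 change -2.40 ± 0.37 SE, adjusted p = 0.000358) and 50.5 to 112 CPM in untreated HSCs. Both were lower in every day-10 library than in any day-6 library, and lower at day 6 than in any untreated library.

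Adhesion and migration genes rose in part. Of 51 homing, integrin and selectin ligand genes, 18 rose (35.3%, against 14.7% of all genes) and 5 fell (9.80%, against 15.9%). The median was 0.33, and 11 rose without day-6 replicate 4. Those that fell were Cd63, Cd81, Rac1, Cdc42 and Chst2, all but Chst2 named after their values were seen. S1pr1, the sphingosine-1-phosphate receptor that guides cells into blood (chromosome 3, 115710433 to 115715055), had 47.4, 53.1 and 70.6 CPM at day 10, against 13, 11.8, 10.9 and 13.1 CPM at day 6 (log2 change 2.19 ± 0.14 SE, adjusted p = 3.51e-07), the smallest p in the list. Day 10 was above every day-6 library by a wide margin and 5 of 6 libraries were above every untreated library (34 to 49 CPM). Pecam1, the adhesion molecule CD31, had 148, 161 and 196 CPM at day 10, against 72.3, 47, 72.7 and 76 CPM at day 6 (log2 change 1.30 ± 0.13 SE, adjusted p = 1.86e-05) and 86.1 to 117 CPM in untreated HSCs. Chst2, a sulfotransferase that helps to make selectin ligands, had 3.24, 10.7 and 21.4 CPM at day 10, against 44.4, 60.8, 58.9 and 48.2 CPM at day 6 (log2 change -2.21 ± 0.35 SE, adjusted p = 0.000388), one of the largest falls under the naming rule.

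A further step up after day 6 was seen for Selp and Cd53. Selp, P-selectin (chromosome 1, 164115264 to 164150026), had 267, 366 and 519.5 CPM at day 10, against 104, 79.5, 122 and 102 CPM at day 6 (log2 change 1.86 ± 0.23 SE, adjusted p = 6.93e-05) and 10.5 to 29.7 CPM in untreated HSCs. Cd53, a tetraspanin of blood cells (chromosome 3, 106758861 to 106790149), had 176, 217 and 322 CPM at day 10, against 118, 61.9, 77.7 and 70.7 CPM at day 6 (log2 change 1.5 ± 0.20 SE, adjusted p = 0.000153) and 12.8 to 24.3 CPM in untreated HSCs. For both genes the 3 groups formed separate ranges, and day 10 was the highest. Vldlr, a lipoprotein and reelin receptor, had 34.8, 60.2 and 90.7 CPM at day 10, against 3.69, 3.55, 2.91 and 6.79 CPM at day 6 (log2 change 3.90 ± 0.42 SE, adjusted p = 2.71e-05), above its untreated range of 7.18 to 28.3 CPM.

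The largest falls under the naming rule were led by genes that peaked at day 6. Enah, an actin regulator of cell protrusions (chromosome 1, 181896384 to 182019980), had 4.16, 6.82 and 10.4 CPM at day 10, against 31.1, 48.7, 33 and 51 CPM at day 6 (log2 change -2.55 ± 0.37 SE, adjusted p = 0.000219) and 3.92 to 23.6 CPM in untreated HSCs. Gem, a small GTP-binding protein that limits calcium channels, had 69.1, 242 and 389 CPM at day 10, against 709, 796, 644 and 704 CPM at day 6 (log2 change -1.57 ± 0.35 SE, adjusted p = 0.00359), still above its untreated range of 12.5 to 29 CPM. The groups did not overlap, and day-10 replicate 1 was lowest for Gem and highest for Cdk6, Selp, Cd53 and Socs3. On intron reads the change of Gem was -0.69 (adjusted p = 0.233). Xbp1, the factor of the unfolded protein response and of secretory cells, had 77, 120.4 and 213 CPM at day 10, against 286, 405, 266 and 322 CPM at day 6 (log2 change -1.30 ± 0.28 SE, adjusted p = 0.00292) and 61.1 to 149 CPM in untreated HSCs. Akr1c13, an aldo-keto reductase, fell (log2 change -1.79) to its untreated range. Timp3, an inhibitor of metalloproteinases, fell (log2 change -1.36, or -2.03 on unique reads) and lay below all untreated libraries in all 6 day-10 libraries, at 8.04 to 23.9 against 24.3 to 42 CPM.

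Interferon-stimulated genes rose more often than any other list. Of 72 tested genes of the list, 59 rose (81.9%, against 14.7% of all genes), 1 fell and 12 did not pass, with a median log2 change of 1.63. For 42 the groups did not overlap (22.5% of all genes did not), and 45 were also higher than in untreated HSCs, against 19.9% of all genes. The rise was largest in day-10 replicate 6, where the mean log2 CPM of the list was 8.38. It was 5.76 to 6.90 in the remaining day-10 libraries and 5.02 to 5.40 at day 6. Without that library 56 of 70 rose and the median was 0.88, and without the 3 libraries named above 48 of 70 rose with a median of 0.81. Over the settings that leave out 1 library, 41 to 62 rose, the fewest without day-6 replicate 2.

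Promoters of 2 interferon genes are shown because type I interferon acts through the ISRE, a promoter element of its target genes. The motif searched was GAAA, any 2 bases and GAAA again, on either strand, in the 250 bases before the RefSeq start. It was present for 24 of the 56 genes of the list with a RefSeq promoter (42.9%), against 336 of 10324 tested genes (3.25%). Cxcl10 and Ifit1 are shown as the list's genes with the largest rises that hold the motif and share their start with the deposited annotation. Their match was thus set by the choice. Capitals mark the motif, which is not evidence of binding.
Cxcl10 promoter, chr5:92348890-92349139, minus strand: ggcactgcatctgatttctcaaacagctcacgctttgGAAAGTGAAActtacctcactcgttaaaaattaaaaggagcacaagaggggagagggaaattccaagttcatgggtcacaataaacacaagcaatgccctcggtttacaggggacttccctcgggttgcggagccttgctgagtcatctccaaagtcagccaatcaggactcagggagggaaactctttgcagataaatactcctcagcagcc
Ifit1 promoter, chr19:34640639-34640888, plus strand: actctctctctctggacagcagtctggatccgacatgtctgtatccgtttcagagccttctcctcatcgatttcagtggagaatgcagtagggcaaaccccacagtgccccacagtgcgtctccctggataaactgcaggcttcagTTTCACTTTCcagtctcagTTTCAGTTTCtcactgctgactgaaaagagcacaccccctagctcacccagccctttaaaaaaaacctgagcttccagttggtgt
Cxcl10, a chemokine that attracts T cells (chromosome 5, 92346638 to 92348889), showed the largest rise under the naming rule. It had 5.22, 43.6 and 502 CPM at day 10, against 0.443, 0.71, 1.21 and 0.463 CPM at day 6 (log2 change 7.33 ± 1.42 SE, adjusted p = 0.00155), with the highest value in replicate 6 and a change of 5.87 without it. At 0 to 0.748 CPM in untreated HSCs, it rested on few reads outside day 10 and passed the filter on low counts through the day-10 libraries, so the size of its fold is uncertain. Ifit1, which binds foreign RNA and was chosen after its values were seen, had 17.6, 56.1 and 229 CPM at day 10, against 18, 3.55, 6.43 and 5.87 CPM at day 6 (log2 change 3.18 ± 0.66 SE, adjusted p = 0.0025), or 2.41 without replicate 6. Its day-6 replicate 1 reached the lowest day-10 value.

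Oas2, a sensor of double-stranded RNA (chromosome 5, 120730333 to 120749874), had 136, 275 and 833 CPM at day 10, against 45, 36.8, 31.6 and 30.7 CPM at day 6 (log2 change 3.43 ± 0.48 SE, adjusted p = 0.000182), and its lowest day-10 library was above all untreated libraries (32 to 83.5 CPM). Oasl1, its relative, had 24.5, 42.4 and 177 CPM at day 10, against 8.41, 3.83, 4.74 and 9.73 CPM at day 6 (log2 change 3.29 ± 0.57 SE, adjusted p = 0.000783), or 2.65 without replicate 6. Zbp1, a sensor of Z-form nucleic acid, had 12.6, 37.3 and 354 CPM at day 10, against 6.79, 5.11, 6.68 and 5.71 CPM at day 6 (log2 change 3.81 ± 0.90 SE, adjusted p = 0.00536), or 2.34 without replicate 6. None of these 3 genes overlapped between the days. The spread among day-10 libraries was wide, with day-10 replicates 1 and 5 at the low end for Zbp1 and Oasl1.

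Irf9, a factor that binds the ISRE, had 91.1, 126 and 170.0 CPM at day 10, against 59.6, 65.2, 65.9 and 65 CPM at day 6 (log2 change 0.98 ± 0.14 SE, adjusted p = 0.000231) and 100.4 to 114 CPM in untreated HSCs. Ifi27, a mitochondrial interferon-induced protein, had 58.1, 105 and 147 CPM at day 10, against 30.4, 25.6, 33.8 and 25.6 CPM at day 6 (log2 change 1.85 ± 0.25 SE, adjusted p = 0.000158). Both rose without overlap. Slfn2, the schlafen gene that keeps T cells quiescent, was the only member that fell, with 9.56, 17.9 and 50.5 CPM at day 10, against 73.2, 89.5, 83 and 72.1 CPM at day 6 (log2 change -1.83 ± 0.34 SE, adjusted p = 0.00114). Its day-10 maximum also came from replicate 6, and the change was -2.47 without the 3 libraries named above and -0.39 on intron reads (adjusted p = 0.309).

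**Figure D4:**
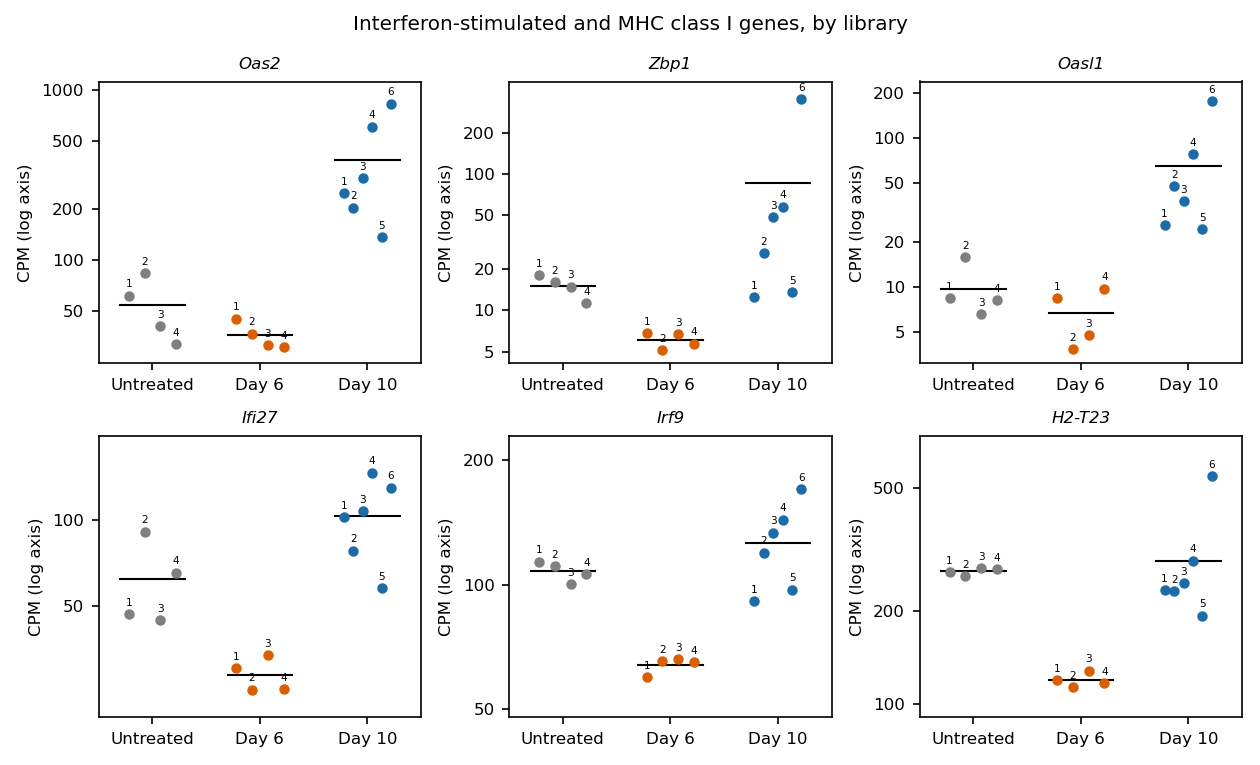
CPM of 6 interferon-stimulated and MHC class I genes in each library on log axes (numbers are replicates, lines are group means of 4 untreated, 4 day-6 and 6 day-10 libraries). Every day-10 library lies above every day-6 library for each of the 6 genes, and day-10 replicate 6 is the highest library for Oas2, Zbp1, Oasl1, Irf9 and H2-T23.

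Of 25 MHC class I and II genes, 14 rose and 11 did not pass, with a median of 0.85, and 9 rose without day-6 replicate 4. H2-T23, which encodes the non-classical class I molecule Qa-1, had 193, 239.5 and 547 CPM at day 10, against 119.7, 113, 128 and 117 CPM at day 6 (log2 change 1.28 ± 0.22 SE, adjusted p = 0.000802), with the highest value in replicate 6. H2-Q4, a class Ib gene, had 257, 319.8 and 504 CPM at day 10, against 192, 192, 201 and 169.9 CPM at day 6 (log2 change 0.88 ± 0.15 SE, adjusted p = 0.000791). For both the groups did not overlap. Reads shared between near-identical MHC genes make single members uncertain: on unique reads 11 members were tested and 2 rose. C4b, the complement component next to the class II genes, had 4.9, 52.2 and 83.5 CPM at day 10, against 1.48, 0.142, 0.243 and 0 CPM at day 6 (log2 change 6.60 ± 1.19 SE, adjusted p = 0.000997), where the day-6 values rest on few reads.

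Markers of other blood and marrow cells were read beside these changes. In bulk libraries fewer cells of a type cannot be told apart from less RNA per cell. A marker at 0 in all day-6 libraries could be tested only through its counts in other groups and could not fall. The share of a list that rose therefore depends on which members were tested. Of 36 macrophage and monocyte markers, 2 of 27 tested rose (Ms4a6c and Apoe) and 1 fell (Hmox1, named after its values were seen), which is below the background in both directions. Their sum was 867 to 1436 CPM over the day-10 libraries, 532 to 3625 CPM over the day-6 libraries and 680 to 864 CPM over the untreated libraries. Csf1r, which defines macrophages, had 7.33, 10.0 and 32.5 CPM at day 10, against 96.4, 6.11, 1.46 and 10.5 CPM at day 6 (log2 change -0.96, adjusted p = 0.376), and the high value was that of day-6 replicate 1. Without that library the change was 1.30. Hmox1, haem oxygenase, had 22, 48.2 and 113 CPM at day 10, against 722, 40.2, 34.2 and 91.6 CPM at day 6 (log2 change -2.08 ± 0.73 SE, adjusted p = 0.0412), or -0.069 without day-6 replicate 1 (adjusted p = 0.939). It also missed the threshold without day-10 replicate 1, 2, 4 or 5 (adjusted p = 0.0648, 0.0806, 0.065 and 0.0622) and without untreated replicate 1 (adjusted p = 0.0512). Ms4a6c had 45.5, 67.1 and 153 CPM at day 10, against 21.7, 9.94, 15.2 and 8.8 CPM at day 6 (log2 change 2.52 ± 0.35 SE, adjusted p = 0.000185). Leaving out day-6 replicate 1 raised the number of macrophage markers that rose to 5. The number that fell was 4 without day-10 replicate 3 or day-6 replicate 2, and 5 without day-6 replicate 3. It was 0 without day-6 replicate 1, without day-10 replicate 1, 2, 4 or 5 and without untreated replicate 1. It was also 0 without the 3 libraries named above, with the 2 groups alone and with the replicate number as a block.

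Some early myeloid and lymphoid genes rose. Of 32 granulocyte and myeloid progenitor markers, 16 were tested. Of these, 3 rose (Prtn3, Csf3r and Plac8), a share near the background, and 1 fell (Cd63, named after its values were seen). Prtn3, proteinase 3 of promyelocytes, had 36.3, 49 and 66 CPM at day 10, against 12.2, 13.2, 13.8 and 12.1 CPM at day 6 (log2 change 1.97 ± 0.16 SE, adjusted p = 2.62e-06). Plac8, a gene of early myeloid cells, had 59.2, 184 and 437 CPM at day 10, against 18.4, 11.1, 27.6 and 16.7 CPM at day 6 (log2 change 3.57 ± 0.54 SE, adjusted p = 0.00028), and 2.81 without the 3 libraries named above. Both lay above all day-6 libraries in all 6 day-10 libraries. The granule genes Ctsg, Mmp8, Chil3 and Retnlg were at 0 in all 10 libraries of both days, and the list's sum was 1522 to 2168 CPM at day 10, 1150 to 2391 CPM at day 6 and 1152 to 3614 CPM in untreated HSCs.

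Of 42 lymphoid markers, 26 were under 1 CPM in all 10 libraries of both days, and 12 were tested. Of these 12, 7 rose (58.3%, against 14.7% of all genes) and 5 did not pass, with a median of 0.59. Of the 42, 18 were at 0 in all day-6 libraries, so the share that rose depends on the members tested. Without day-6 replicate 1, 7 of 17 tested markers rose, and without the 3 libraries named above 6 of 17 did. On intron reads 4 of 13 rose, against 1389 of 14996 genes. Flt3, the receptor of lymphoid-primed progenitors, had 9.81, 23.7 and 34.7 CPM at day 10, against 3.25, 2.56, 3.64 and 6.33 CPM at day 6 (log2 change 2.46 ± 0.46 SE, adjusted p = 0.00124), near its untreated range of 16.3 to 57.5 CPM. The T cell genes Cd3e, Cd3g, Trbc1 and Trbc2 were at 0 in all 10 libraries, and the sum of the list was 523 to 581 CPM at day 10, 376 to 415 CPM at day 6 and 556 to 629 CPM in untreated HSCs.

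Of 33 tested erythroid markers, 6 rose (18.2%, against 14.7% of all genes) and 1 fell (3.03%, against 15.9%). The gene that fell was Car2, named after its values were seen. The number that rose was 3 without day-10 replicate 4 or without day-6 replicate 1, 2 or 3. Their sum was 1869 to 3192 CPM at day 10, 2007 to 2222 CPM at day 6 and 4523 to 8846 CPM in untreated HSCs, and the highest of both days was day-10 replicate 4. Hbb-bs, adult beta-globin, had 2.68, 4.32 and 12 CPM at day 10, against 7.53, 19, 5.1 and 6.02 CPM at day 6 (log2 change -0.85, adjusted p = 0.184) and 1001 to 2736 CPM in untreated HSCs, and it passed without day-10 replicate 4 (adjusted p = 0.0459). Gata1, the factor of erythroid and megakaryocyte fate, had 8.09, 22.6 and 41.3 CPM at day 10, against 3.4, 4.12, 4.13 and 4.32 CPM at day 6 (log2 change 2.58 ± 0.58 SE, adjusted p = 0.00401), and all day-10 libraries were above all untreated ones (0.187 to 5.92 CPM).

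Of 33 tested megakaryocyte and platelet markers, 7 rose (21.2%, against 14.7% of all genes) and 4 fell (12.1%, against 15.9%). The median was 0.09, and 3 rose without day-6 replicate 4. Their sum was 3211 to 3878 CPM at day 10, 2959 to 3419 CPM at day 6 and 4293 to 4401 CPM in untreated HSCs. Of 25 mast cell, basophil and eosinophil markers, 15 were under 1 CPM in all 10 libraries of both days, and 7 were tested. Of these 7, 3 rose (Cpa3, Gata2 and Srgn), or 42.9% against 14.7% of all genes. The sums of the list were 1262 to 1591 CPM at day 10, 1191 to 1215 CPM at day 6 and 1993 to 2327 CPM in untreated HSCs. The mast cell proteases Cma1, Mcpt4 and Tpsb2 were at 0 in all 10 libraries. Endothelial markers, many of which HSCs express, rose for 6 of 26 tested (23.1%, against 14.7% of all genes) and fell for 3 (11.5%, against 15.9%). Their sums were 2726 to 3433 CPM at day 10, 2712 to 2903 CPM at day 6 and 3081 to 3356 CPM in untreated HSCs.

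Of 16 tested stromal markers, 5 rose (31.25%, against 14.7% of all genes) and 1 fell (6.25%, against 15.9%). Of the 30 listed, 8 were at 0 in all day-6 libraries, so the share that rose is uncertain. The count that rose was 2 of 14 tested without day-10 replicate 3, where 3 fell. It was 3 without day-10 replicate 5 or day-6 replicate 1 or 3, and 1 without day-6 replicate 2 or 4. On intron reads 0 of 9 rose. The sum of the list was 214 to 1021 CPM at day 10, 186 to 396 CPM at day 6 and 299 to 387 CPM in untreated HSCs, and 314 CPM was the highest of the other 5 day-10 libraries. Of 23 tested S100 and annexin genes, 5 fell (21.7%, against 15.9% of all genes) and 1 rose (4.35%, against 14.7%). The gene that rose was Anxa7, named after its values were seen, and 3 fell without day-6 replicate 1. Whether other cells in the sorts contributed to the changes above was not tested.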

How the data were processed

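RNA of 100 sorted cells per library was converted to cDNA and made into Nextera XT libraries, per the labels' protocols. Reads were mapped by the authors to mm10, per the submitters' processing notes, and the deposited counts per gene cover exon reads (total or unique) and intron reads, per the file headers. Which aligner and counter made them is not given in the sources used here. Total exon counts were summed over entries of 1 gene identifier. Without strand in the counts, overlapping and antisense genes cannot be told apart.

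The test was the quasi-likelihood F test of edgeR 4.0.16 (R 4.3.3), after TMM scaling and filterByExpr on the groups, in 1 fit of the 14 libraries of the 5-FU experiment, with group means only. Adjusted p-values are Benjamini-Hochberg over 12886 genes, with a threshold of 0.05. CPM use TMM-scaled library sizes, and SE is the log2 change divided by the square root of F. The fit was tested on simulated data. Library measures were compared by exact permutation (SciPy 1.17.1).

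The 41 gene lists (1675 genes, 107 in more than 1 list) and all comparisons were chosen with earlier results of these data known. Named genes are the 12 largest rises and 12 largest falls with non-overlapping groups and a mean of at least 32 CPM in the higher group, the 3 members of each list with the smallest p, and a fixed set of 15. A part of them is printed, and other genes are marked. Some members of the lists are not reported here. No 2 libraries of a group agreed within sampling noise (chi-square of 3.67 to 43.3 for each degree of freedom, genes of at least 20 counts). Other settings were RLE size factors, no filter, DESeq2 1.42.0, each library or 3 libraries left out, a replicate block, 2 groups alone, unique exon reads, intron reads and entries as deposited.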

Additional observations from a re-analysis of the deposited data

Results flagged for a closer look

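In 366 groups of 4 or 6 libraries examined, 36 values stood far from the rest of their group, where chance gives about 1 in 20. Day-10 replicate 6 was highest among the day-10 libraries for the summed interferon-stimulated genes (36260 CPM, others 7528 to 13510). The same library was highest for Cxcl10 (501.5 CPM, others 5.22 to 119), Zbp1 (354 CPM, others 12.6 to 57.7), Oasl1 (177 CPM, others 24.5 to 77.4), Ifit1 (229 CPM, others 17.6 to 70.8) and Slfn2 (50.5 CPM, others 9.56 to 24.1). It was also highest for H2-T23 (547 CPM, others 193 to 291), Cmpk2 (214 CPM, others 21.7 to 91.8) and Samhd1 (707 CPM, others 208 to 301).

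Day-6 replicate 1 was the highest day-6 library for summed macrophage markers (3625 CPM, others 532 to 946), granulocyte markers (2391 CPM, others 1150 to 1156) and stromal markers (396 CPM, others 186 to 221). It was highest for Hmox1 (722 CPM, others 34.2 to 91.6), Csf1r (96.4 CPM, others 1.46 to 10.5), Ltb (46.6 CPM, others 25.6 to 29.0) and C4b (1.48 CPM, others 0 to 0.243). It was lowest for Acat1 (171 CPM, others 179.7 to 180.2), Psat1 (183 CPM, others 209 to 213), Hspa9 (239 CPM, others 273 to 279) and Irf9 (59.6 CPM, others 65.0 to 65.9).

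Day-6 replicate 2 was highest for Egr1 (154 CPM, others 81.2 to 93.5) and lowest for Pecam1 (47.0 CPM, others 72.3 to 76.0). Day-6 replicate 3 was lowest for Sdhd (146 CPM, others 158 to 159) and for the intron share (56.2%, others 57.9 to 58.0), and highest for the mitochondrial share (0.362%, others 0.316 to 0.322) and summed endothelial markers (2903 CPM, others 2712 to 2733). Day-6 replicate 4 was highest for Brca2 (109 CPM, others 94.9 to 96.7).

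Day-10 replicate 1 was highest for Cdk6 (2288 CPM, others 696 to 1271), day-10 replicate 3 for summed stromal markers (1021 CPM, others 214 to 314) and Hmox1 (113 CPM, others 22 to 55.7), and day-10 replicate 4 for Hbb-bs (12.03 CPM, others 2.68 to 5.78). Among untreated libraries, replicate 1 was highest for Socs3 (26.1 CPM, others 7.90 to 9.35) and Upp1 (35.8 CPM, others 23.8 to 25.2), replicate 2 for Mcm5 (192 CPM, others 162 to 166) and Tfdp1 (156 CPM, others 142 to 144), and replicate 3 for summed granulocyte markers (3614 CPM, others 1152 to 1399).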

How the results depend on the processing

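The number of genes that passed was 3949, and it was 3937 with RLE size factors, 3688 without a filter, 4241 in DESeq2, 3958 with the 2 groups alone, 3564 on unique exon reads, 3987 on entries as deposited and 3495 without day-6 replicate 1 and day-10 replicates 4 and 6. Leaving out 1 library gave 2838 (without day-6 replicate 2) to 4198 (without day-10 replicate 6), with 1384 to 1923 higher and 1454 to 2393 lower. With the replicate number as a block 3271 passed. Deviations from the group means correlated at -0.194 to 0.025 for same-numbered libraries of the 2 days and at -0.125 to 0.208 for the other pairs. With so few libraries in each mean these values cannot decide whether the numbers pair the libraries, and the labels do not say. On intron reads 2542 passed, 1389 higher and 1153 lower, of which 1572 also passed on exon reads, 9 of them in the opposite direction. The cause was not tested.

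Of 111 printed genes, 84 kept their side of the threshold in every setting run, and 22 changed on intron reads alone. Besides those given above, Pold2, Tubb5, Dctpp1, Acat1, Rps27, Mmrn1, Socs2 and Rps27l did not pass on intron reads. A change of direction was counted only where 1 of the 2 fits passed. The 84 therefore include genes that changed direction without passing, among them Csf1r (1.30 without day-6 replicate 1) and Cd48 (-0.92 on intron reads). Counted in that way, intron reads reversed Tuba1b (0.11), Rps9 (-0.20) and Cdkn1a (1.48, the value that passed). Acly, Hmox1, Mki67, Cmpk2 and Hbb-bs also crossed the threshold when single libraries were left out. On intron reads 1153 of 14996 genes fell. Among the lists, falls numbered 6 of 76 for respiratory genes, 5 of 33 for glycolysis, 4 of 36 for the TCA cycle and 3 of 35 for antioxidants. They numbered 2 of 34 for heat shock and chaperones, 0 of 27 for cholesterol synthesis, 2 of 38 for the proteasome and 26 of 63 for ribosome biogenesis. Genes at a few CPM, such as C4b and Cyp26b1, rest on few reads, and counting error limits their folds.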
